A study of Mus musculus with 45 samples.

Results

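The CSF and IL-3 family was followed through 3 tables of mouse microglia and brain RNA as 10 genes, 6 receptor genes (Csf1r, Csf2ra, Csf2rb, Csf2rb2, Csf3r and Il3ra) and 4 ligand genes (Csf1, Csf2, Csf3 and Il34), which were chosen by name. All 10 are listed in each table, among 55450 genes of slice microglia, 47643 of adult microglia and 43411 of brain tissue. Between 7 and 8 of the 10 had enough counts to be tested, depending on the table. The questions were at what level each gene was present, how it differed after each treatment, and whether the receptor genes differed after GM-CSF, the ligand of 2 of the chains.

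The 45 samples, all from C57BL/6 mice, fall into 7 groups. Slice microglia were sorted by high CD11b and intermediate CD45 from coronal slices of neonatal brain kept 2 weeks in culture and then 24 h in medium (9 samples), TNF at 50 ng/mL (11 samples) or GM-CSF at 20 ng/mL (9 samples), with 3 slices pooled per sample per the labels. Adult microglia came through the same sort from mice of 10 to 15 weeks, 24 h after LPS at 1 mg/kg (4 samples) or PBS (4 samples), and brain tissue from such mice, also of 10 to 15 weeks, with that LPS dose 24 h earlier (4 samples) or untreated (4 samples). All groups are wild type, all slices shared the same culture medium, to which PDGF was added per the methods, and the untreated brain tissue, unlike the PBS microglia, came from mice that received no injection.

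The depth of the slice libraries was 5973364 to 9165485 counts, that of the adult microglia libraries 11391564 to 14216005 and that of the brain libraries 8199863 to 10368578. Microglial markers were present in every sorted group (9 of 9 markers averaged 10 counts or more), and lymphocyte markers stayed below a summed 2.26 CPM (counts per 1000000 counts of the library, with TMM factors) in every library. TNF replicate 6 stood apart in neutrophil markers, with a summed 127.9 CPM against a median of 8.59 CPM over the TNF libraries. The study gives the in vivo samples as coming from independent mice and the slice samples as pools of slices treated apart. The study describes the slice data as pooled from several independent experiments, for which the main fit and the permutation tests hold no term. Which slice samples came from separate animals or experiments was not found in the sources used, so slice p-values measure the spread between these pools. Neither do they say what the codes 1A, 1B, 2A and 2B in the slice titles mean, and slice results are given within these codes as well.

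CSF1R is the receptor tyrosine kinase on which microglia depend for survival. Its ligands are CSF1, made by several brain cell types, and IL-34, made largely by neurons. GM-CSF (the product of Csf2) and IL-3 each bind a chain of their own, encoded by Csf2ra and Il3ra, which signals through a common beta chain encoded by Csf2rb. Mice carry another beta chain gene, Csf2rb2, whose product serves the IL-3 receptor alone. Signals from these receptors pass through JAK2 to STAT5, whose targets include the inhibitors Cish and Socs2. CSF3R is the receptor of G-CSF (the product of Csf3) and is best known from neutrophils.

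The beta chain genes lie side by side on chromosome 15 of GRCm38, Csf2rb2 at chr15:78282507-78305721 on the minus strand and Csf2rb at chr15:78325752-78353847 on the plus strand. Their coding sequences, of 2688 and 2634 bases, matched at 2503 of 2628 aligned bases, or 95.2%. Of all 75-base windows, the read length of the slice libraries, 10.7% of the Csf2rb transcript occurred unaltered in Csf2rb2 and 11.1% the other way round. Of 50-base windows, the read length of the adult microglia and brain libraries, it was 18.4% and 19.0%. A single read from such a window cannot be given to either gene, whereas in the paired-end adult libraries the mate may lie outside it. The brain libraries were single-end per the methods, so their reads have no mate. How such reads were assigned is not known here, so values of this pair are uncertain. The 75-base coding windows below are the pair with the most differences, 14, which are in capitals. Both lie in an exon, that of Csf2rb at chr15:78338905-78338979 (plus strand) and that of Csf2rb2 at chr15:78294352-78294426 (minus strand).
Csf2rb: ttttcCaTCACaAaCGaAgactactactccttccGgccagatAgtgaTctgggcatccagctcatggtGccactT
Csf2rb2: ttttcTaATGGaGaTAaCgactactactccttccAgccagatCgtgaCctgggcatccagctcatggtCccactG
The longest coding stretch that both genes share without a difference is 242 bases, at chr15:78348577-78348818 in Csf2rb and chr15:78284630-78284871 in Csf2rb2. It is shown because no single read of 50 or 75 bases within it can tell the genes apart.
Shared stretch: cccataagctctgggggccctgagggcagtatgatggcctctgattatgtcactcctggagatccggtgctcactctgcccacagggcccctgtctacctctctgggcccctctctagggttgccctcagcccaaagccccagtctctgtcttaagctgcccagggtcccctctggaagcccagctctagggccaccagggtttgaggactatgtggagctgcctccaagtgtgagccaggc

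Promoters were read from RefSeq (GRCm38.p6) as the 250 bases before a gene's start, and 6 of the 10 genes matched an entry (Csf2ra, Csf2rb2, Csf3r, Il3ra, Csf1 and Csf2). For this, 3 motifs were searched on both strands, the STAT motif TTCNNNGAA, the PU.1 core GAGGAA, and the NF-kB motif by its name. Of 32851 RefSeq promoters of this length, 7.0% held the STAT motif, 23.3% the PU.1 core and 7.3% the NF-kB motif. The 3 genes below are those with an entry that were called higher in LPS microglia, and matches are in capitals. The last 11 bases of the Csf2ra window lie within its GENCODE transcript. Matches may share letters with other motifs, and a match is not shown to be a bound site.
Csf2rb2, chr15:78305722-78305971, minus strand: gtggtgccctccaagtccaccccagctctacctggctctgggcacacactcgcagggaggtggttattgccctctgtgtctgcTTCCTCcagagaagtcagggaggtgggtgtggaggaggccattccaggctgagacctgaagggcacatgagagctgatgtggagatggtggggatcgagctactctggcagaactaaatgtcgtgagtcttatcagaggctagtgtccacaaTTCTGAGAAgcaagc
Csf2ra, chr19:61228419-61228668, minus strand: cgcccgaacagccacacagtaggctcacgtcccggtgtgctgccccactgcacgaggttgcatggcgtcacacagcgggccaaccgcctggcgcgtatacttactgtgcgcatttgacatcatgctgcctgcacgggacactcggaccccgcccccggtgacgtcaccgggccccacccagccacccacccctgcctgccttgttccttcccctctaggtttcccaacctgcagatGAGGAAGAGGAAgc
Csf1, chr3:107760470-107760719, minus strand: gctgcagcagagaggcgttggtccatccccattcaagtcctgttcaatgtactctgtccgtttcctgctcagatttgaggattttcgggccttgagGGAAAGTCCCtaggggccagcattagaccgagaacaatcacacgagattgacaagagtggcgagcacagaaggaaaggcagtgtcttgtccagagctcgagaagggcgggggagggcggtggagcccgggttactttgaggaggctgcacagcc
The Csf2rb2 promoter held a STAT match that began 15 bases before the start and a PU.1 match at 167 bases. That of Csf2ra held 2 adjoining PU.1 matches at 14 and 8 bases, and that of Csf1 an NF-kB match at 154 bases. The RefSeq windows of Csf3r and Il3ra reach into their GENCODE transcripts, which start at 126024550 and 14346275, and are not printed. That of Csf3r held an NF-kB match at 129 bases and a PU.1 match at 86 bases before the RefSeq start, of which the first lies upstream of the GENCODE start and the other inside the transcript. Il3ra and Csf2 held none of the 3. The Csf2 window, chr11:54249900-54250149 on the minus strand, stops short of the GENCODE start at 54249667, and the bases between were not searched.

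The other members lie apart from each other. In GENCODE M21 (GRCm38), Csf2ra is at chr19:61223957-61228429, Csf3r at chr4:126024550-126044440, Il3ra at chr14:14346275-14356011, Csf1 at chr3:107741048-107760469, Csf2 at chr11:54247271-54249667, Csf3 at chr11:98701263-98703629 and Il34 at chr8:110741829-110805924, and Csf1r is on chromosome 18. Hmgxb3 shares exon sequence with Csf1r from the other strand, and held 5427 counts beside 861726 of Csf1r in slice microglia but 3644 beside 7395 in brain tissue. Whether reads were counted by strand is not given in the sources used here, so the Csf1r level of brain tissue is the less certain. The antisense gene Gm12223 at Csf2 held 3 counts in all brain libraries together, and Gm15894 and Gm15895 at Il34 held 31 and 10.

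Csf1r was the most abundant member in both kinds of microglia. In RPKM, which is CPM per kilobase of exon, it reached 851.7 ± 100.3 (SD, n = 9) in medium slices and 2537 ± 145 (n = 4) in PBS microglia, apart from every other member in every library of each. In medium slices Csf2ra followed at 60.6 ± 7.66, then Csf3r at 41.5 ± 6.49, Csf1 at 22.5 ± 7.92, Csf2rb at 17.6 ± 1.54 and Csf2rb2 at 13.04 ± 2.36 RPKM. The ranges of neighbours in that order overlapped from Csf2ra down to Csf2rb2, and Il3ra lay below them at 2.66 ± 1.25 RPKM. In PBS microglia no neighbours overlapped, and Csf3r was second at 174.0 ± 12.9, before Csf2ra at 36.9 ± 2.84, Csf2rb at 15.0 ± 1.24, Csf2rb2 at 6.29 ± 0.815, Csf1 at 4.24 ± 0.602 and Il3ra at 0.425 ± 0.107 RPKM.

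In untreated brain tissue the order was led by a ligand. Il34 stood at 22.1 ± 0.993 (SD, n = 4), Csf1r at 15.4 ± 0.922, Csf2ra at 7.13 ± 0.511 and Csf1 at 4.90 ± 0.293 RPKM, each apart from the next. Csf3r was at 1.71 ± 0.264, Il3ra at 0.486 ± 0.190, Csf2rb2 at 0.319 ± 0.0925 and Csf2rb at 0.181 ± 0.0256 RPKM. In these whole tissues, fewer cells of a type and less RNA per cell cannot be told apart.

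**Figure D1:**
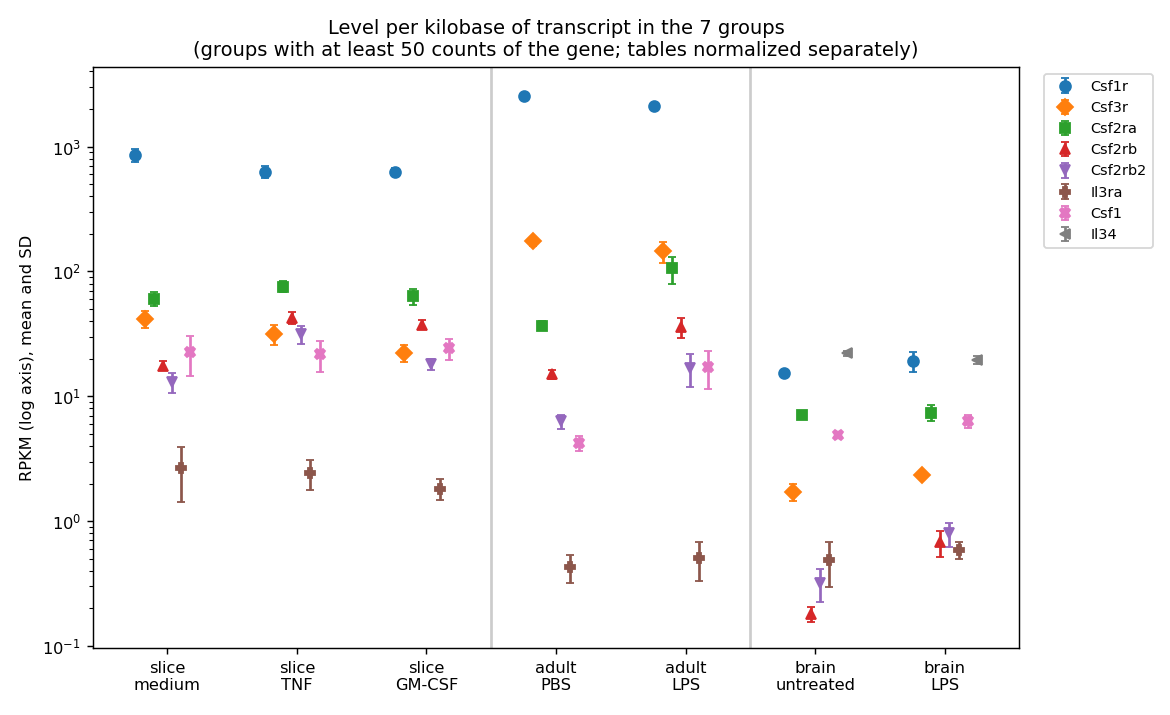
Level per kilobase of exon (RPKM, log axis) of 8 members in the 7 groups, as mean and SD over 4 to 11 samples, for groups with at least 50 counts of the gene. Csf1r leads in all microglia and Il34 in untreated brain tissue, while in LPS brain tissue Il34 (19.7) and Csf1r (19.0) overlap, and Il3ra is the lowest member drawn in every microglia group.

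The tables were normalized separately and differ in kit, sorting and control, so levels across them are set side by side without a test. PBS microglia held 164.4 times the CPM of Csf1r in untreated brain tissue, 102.0 times that of Csf3r, 83.0 times that of Csf2rb and 19.7 times that of Csf2rb2. Csf2ra, the GM-CSF binding chain, stood at 5.17 times (105.8 against 20.5 CPM). Il3ra and Csf1 were at 0.876 and 0.865 times. Medium slice microglia held 5.30 times the Csf1 of PBS microglia, 6.26 times the Il3ra and 2.07 times the Csf2rb2, but 0.336 times the Csf1r and 0.239 times the Csf3r. Between the same groups, markers of monocytes and border macrophages summed to a median of 634.6 and 19.6 CPM, with F13a1 at 302.7 and 0.677 CPM, and microglial markers to 20810 and 48997 CPM. Their part in these levels was not tested.

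The remaining ligands were at the edge of detection in microglia. Csf2, the gene of GM-CSF, had 5 counts in medium replicate 3, 5 counts in TNF replicate 2 and 0 in the other 27 slice libraries, and 0 in all adult microglia and brain libraries. Csf3 had 0 counts in every microglia library, while in brain tissue the LPS libraries held 3, 0, 12 and 4 counts and the untreated ones 0, 1, 0 and 0. Il34 had 1 count over all TNF slice libraries, 7 over all GM-CSF libraries, none in medium or PBS and 2 in a single LPS microglia library. Taking 3 counts as the limit for a library with none, 0 counts allow up to 0.502, 0.263 and 0.366 CPM in a slice, adult microglia and brain library. Unlike the CPM elsewhere, these use total counts without TMM factors, so the scales differ somewhat. These limits cover counting error only, and none of the 3 genes was tested in microglia.

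**Figure D2:**
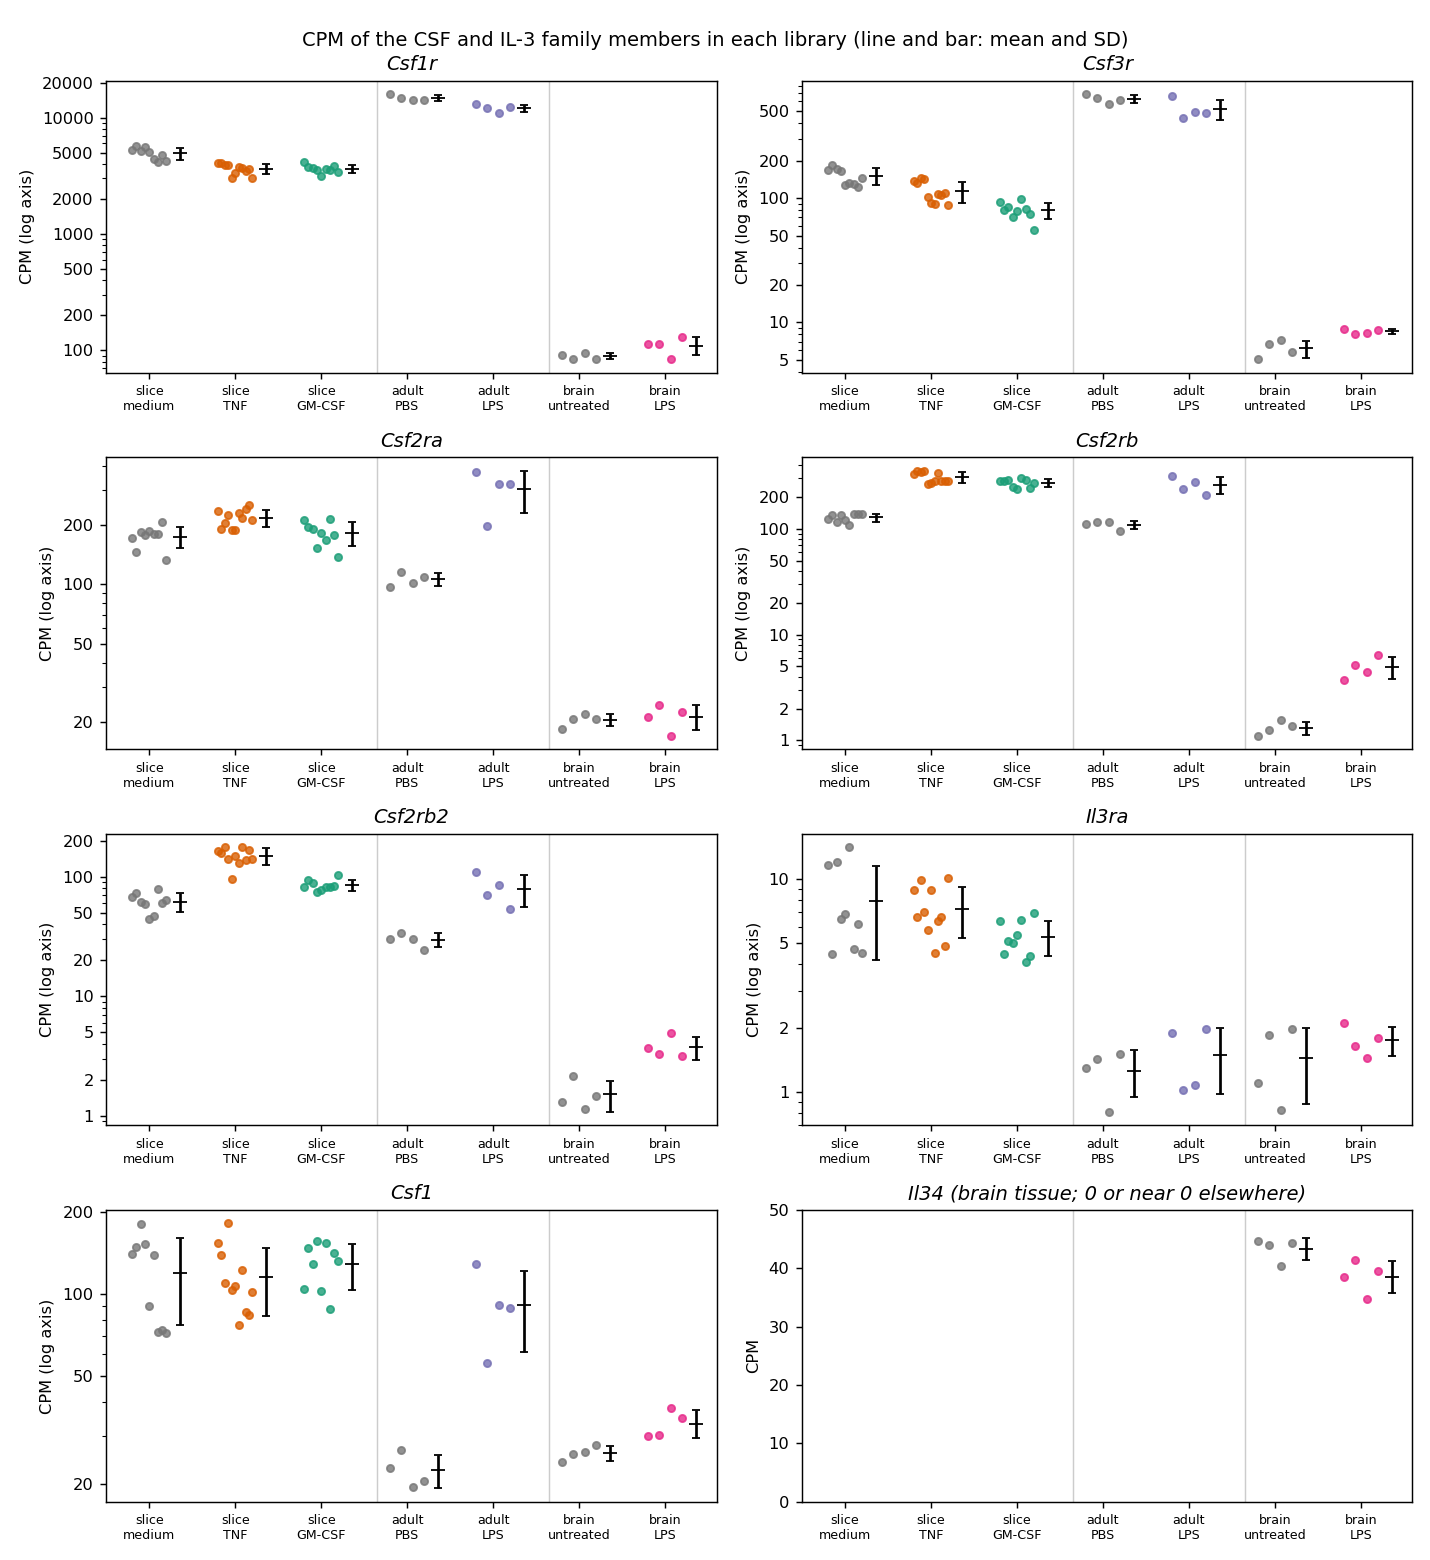
CPM of 8 members in each library (points) with the mean and SD of each group (line and bar), on log axes except for Il34. The Csf2rb points of all 4 treated groups lie above those of their controls, those of Csf1 only in LPS microglia and LPS brain tissue.

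TNF was set against medium to ask how the family differs in slice microglia under this cytokine. Both beta chain genes rose, 2 of 7 members tested, and none fell. Csf2rb ran from 264.8 CPM (lowest) through 286.0 (median) to 355.1 (highest) with TNF and from 108.2 through 134.8 to 138.9 in medium. All 11 TNF libraries lay above all 9 medium libraries, and the difference was 2.40-fold (log2 1.26 ± 0.07 SE, adjusted p = 3.35e-17). Csf2rb2 ran from 96.0 through 149.0 to 177.7 CPM with TNF and from 44.1 through 61.9 to 79.0 in medium. Here too the groups did not overlap, at 2.41-fold (log2 1.27 ± 0.10, adjusted p = 1.25e-12). How often groups fail to overlap over all genes was not counted in any comparison, so non-overlap only describes the member at hand.

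A gene was called where the edgeR quasi-likelihood test gave an adjusted p under 0.05 and the fold change exceeded 1.5. For TNF this held for 20.8% of the 11313 genes tested, 9.1% higher and 11.7% lower, beside which the 2 members called higher are to be read. Within title codes 1A and 1B the log2 change of Csf2rb was 1.33 and within 2A and 2B it was 1.19, and for Csf2rb2 it was 1.18 and 1.35. Without TNF replicate 6, an alternative chosen after seeing the data, the changes were 1.28 and 1.27.

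Csf1r, Csf3r and Csf2ra differed by less than the fold limit. Csf1r ran from 3006 through 3663 to 4107 CPM with TNF and from 4187 through 5029 to 5734 in medium, with every TNF library below every medium library, at 1.36-fold lower (log2 -0.44 ± 0.07, adjusted p = 1.16e-06). All 9 microglial markers fell with TNF, from 17678 to 26249 summed CPM in medium to 7392 to 9547, and their part in the Csf1r value was not tested. Csf3r averaged 113.7 ± 21.5 CPM (SD, n = 11) with TNF and 149.8 ± 23.4 (n = 9) in medium, which overlapped (log2 -0.40 ± 0.10, adjusted p = 0.00224). Of 3 neutrophil markers tested 2 were higher with TNF, their part in this value was not tested, and without TNF replicate 6 the log2 change of Csf3r was -0.37. Of 6 monocyte and border macrophage markers tested, Mrc1 fell by 1.70 and Lyve1 by 3.15 with TNF, and their part in the values of the members was not tested. Csf2ra averaged 217.3 ± 21.9 and 174.1 ± 22.0 CPM (log2 0.32 ± 0.08, adjusted p = 0.0015). Il3ra, at 7.27 ± 1.97 against 7.90 ± 3.71 CPM, had a log2 interval of -0.56 to 0.32, and Csf1, at 114.9 ± 31.9 against 118.7 ± 41.8 CPM, one of -0.38 to 0.28.

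Among the genes that pass on the signal, listed for this work with earlier results known, those of GM-CSF and IL-3 receptor signalling had 3 of 23 higher and 2 lower with TNF, at a median log2 change of 0.01 beside -0.03 over all genes. Among these, the lipid phosphatase gene Inpp5d fell by 0.94. Of 13 STAT5 targets and feedback genes 9 rose, with a median of 1.21, among them the inhibitors Cish (3.39), Socs2 (1.99) and Socs1 (1.68). Of 10 CSF1R signalling genes Src rose by 2.05 and the adaptor Gab3 and the transcription factor Fli1 fell by 1.43 and 1.14. Of 8 transcription factors of the CSF1R axis 4 fell and 1 rose, with Maf at -1.69, Mef2c at -0.89 and Cebpb at 1.58. Of 7 relatives of the family 2 were tested, and Kitl, the ligand of KIT, fell by 0.80 (adjusted p = 0.0449).

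GM-CSF against medium asked about the receptor genes under a ligand of the family. Of 7 members tested, Csf2rb rose and Csf3r fell. Csf2rb, the signalling chain of the GM-CSF receptor, ran from 240.7 CPM through 283.6 to 303.9 with GM-CSF beside 108.2 through 134.8 to 138.9 in medium. No library overlapped, the difference was 2.13-fold (log2 1.09 ± 0.07, adjusted p = 4.82e-14), and the gene ranked 10th of the 11313 by p. Csf3r ran from 55.4 through 80.3 to 97.8 CPM with GM-CSF and from 121.8 through 144.2 to 185.4 in medium. All 9 GM-CSF libraries lay below all 9 medium libraries, at 1.88-fold (log2 -0.91 ± 0.11, adjusted p = 7.12e-08).

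Of all genes tested 10.8% were called with GM-CSF, 4.84% higher and 5.96% lower, and 1 member was called in each direction. With total counts in place of TMM factors the share of higher calls among all calls moved from 44.8% to 63.9%, and the same 2 members were called in the same directions. Within title codes 1A and 1B, and 2A and 2B, Csf2rb changed by 1.12 and 1.08 and Csf3r by -1.07 and -0.74 on the log2 scale. Neutrophil markers, which share Csf3r with that cell type, summed to 3.19 to 44.1 CPM with GM-CSF and 0.834 to 15.8 in medium. Of 10 such markers 3 were tested and none called, Ly6g and Elane had no count in either group, and their part in the Csf3r value was not tested. Of 6 monocyte and border macrophage markers tested, Ms4a7 fell by 1.79 with GM-CSF, and their part in the values of the members was likewise not tested.

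The GM-CSF binding chain Csf2ra did not pass the test with GM-CSF, at 181.2 ± 25.6 CPM (SD, n = 9) against 174.1 ± 22.0 (n = 9) in medium and a log2 interval of -0.11 to 0.22. Csf2rb2, at 85.7 ± 9.07 against 61.8 ± 11.2 CPM, differed by 1.39-fold (log2 0.47 ± 0.10, adjusted p = 0.000752), under the fold limit and with overlapping libraries. Csf1r stood at 3626 ± 271 against 4917 ± 579 CPM, with every GM-CSF library below every medium one (log2 -0.44 ± 0.07, adjusted p = 7.18e-06). That separation rests on the TMM factors. Per total counts, GM-CSF replicate 1 (38022 of 8699953 counts) lies above medium replicate 6 (29322 of 6748345). Microglial markers summed to 11942 to 14487 CPM with GM-CSF, 7 of 9 fell, and their part in the Csf1r value was not tested. Il3ra averaged 5.38 ± 1.03 against 7.90 ± 3.71 CPM (log2 -0.55 ± 0.24, adjusted p = 0.0874). Csf1 averaged 128.2 ± 24.6 against 118.7 ± 41.8 CPM (log2 0.11 ± 0.18, adjusted p = 0.715).

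Downstream of the receptor, 7 of 13 STAT5 targets and feedback genes rose with GM-CSF and 1 fell, at a median of 0.66 beside -0.04 over all genes. The inhibitors Cish and Socs2 rose by 5.77 and 4.98 on the log2 scale, and the repressor Bcl6 fell by 3.17. Of 23 signalling genes 0 rose and 1 fell, with a list median of -0.15. Of 10 CSF1R signalling genes Src rose by 1.58 and the phosphatase gene Ptprj fell by 0.69, and of 8 transcription factors Cebpb rose by 1.04 while 3 fell, among them Maf (-0.66). Neither of the 2 relatives tested was called.

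**Figure D3:**
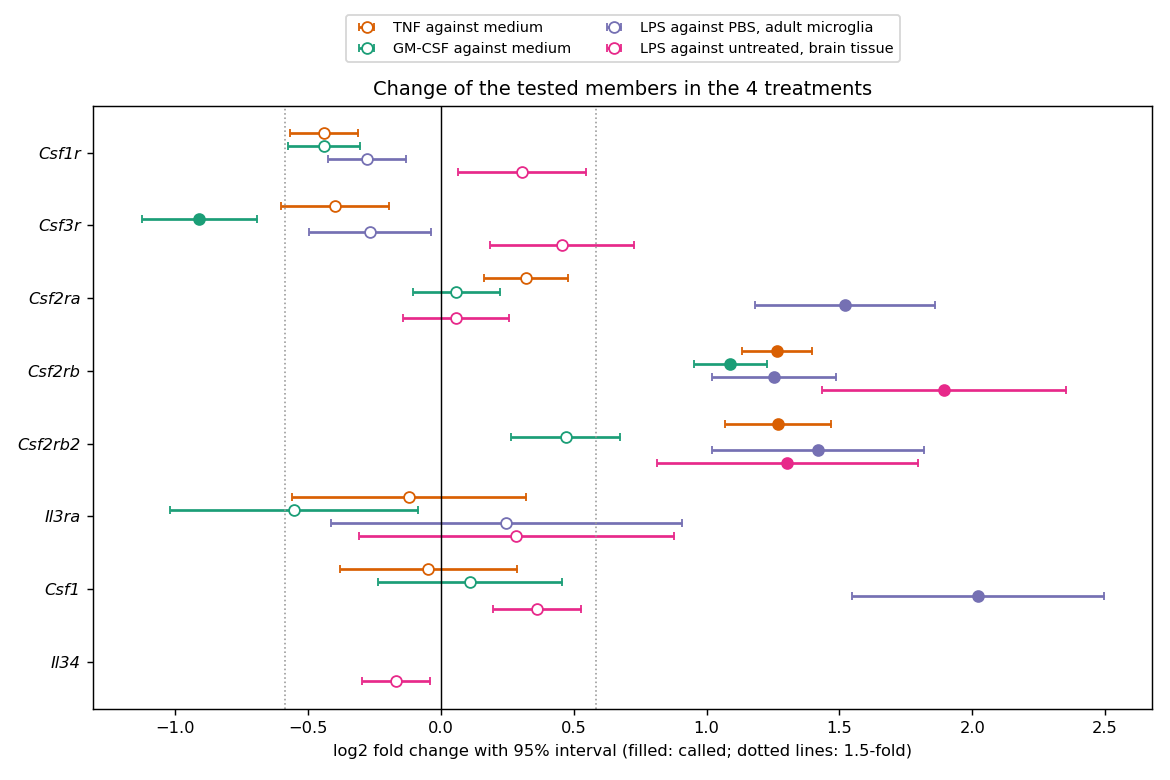
Log2 fold change with its 95% interval for the members tested in the 4 treatments, with filled points for calls and dotted lines at 1.5-fold. Csf2rb is called in all 4 comparisons, Csf2rb2 in 3, and Csf2ra and Csf1 in LPS microglia alone, where calls alone do not show that treatments differ.

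The TNF and GM-CSF comparisons share their medium samples, so their values are set side by side and the treatments were compared directly. Between them 1 of 7 members differed by the call rule, Csf2rb2, which was 1.74-fold higher with TNF (log2 0.80 ± 0.10, adjusted p = 4.77e-08). Csf2rb was 1.13-fold higher with TNF (log2 0.18 ± 0.07, adjusted p = 0.0394), under the fold limit. Csf3r was 1.43-fold higher with TNF than with GM-CSF (log2 0.51 ± 0.11, adjusted p = 0.000225), and Csf2ra 1.20-fold higher (log2 0.26 ± 0.08, adjusted p = 0.0112). The Csf1r interval was -0.13 to 0.13 on the log2 scale, at 3626 CPM in both. This closeness rests on the TMM factors, since per total counts the mean Csf1r level is lower with TNF than with GM-CSF. Of all genes 16.2% were called between the cytokines, 8.25% higher with TNF and 7.96% lower, and total counts moved the share of higher calls from 50.9% to 31.4%.

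Between the cytokines 5 of 23 signalling genes were higher with TNF and none lower, among them the kinase gene Map2k1 (0.76). Of the STAT5 targets and feedback genes 5 were higher with TNF, among them Bcl6 (2.82), and 3 were lower, among them Socs2 (-2.99) and Cish (-2.38).

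The balance of the beta chain genes was compared as the ratio of their RPKM in each library, a measure added after the values were seen. It draws on the same libraries as the calls above, so its p-values are not separate evidence. Csf2rb to Csf2rb2 stood at 2.09 ± 0.220 (SD, n = 9) with GM-CSF, at 1.38 ± 0.211 (n = 9) in medium and at 1.37 ± 0.201 (n = 11) with TNF. GM-CSF libraries exceeded all medium libraries in 8 of 9, by 0.60 on the log2 scale (two-sided exact permutation test over samples, p = 8.23e-05, adjusted over 10 such tests 0.000206). TNF and medium differed by -0.01 (exact permutation p = 0.899), and TNF lay 0.62 below GM-CSF (group difference -0.62, exact permutation p = 1.79e-05, adjusted 8.93e-05). In adult microglia the ratio was 2.41 ± 0.141 with PBS and 2.19 ± 0.260 with LPS (n = 4 each, exact permutation p = 0.2), and in brain tissue 0.607 ± 0.209 untreated and 0.897 ± 0.344 with LPS (exact permutation p = 0.171).

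The ratio of the common beta chain Csf2rb to the GM-CSF binding chain Csf2ra was 0.297 ± 0.0583 in medium but 0.565 ± 0.0845 under TNF and 0.603 ± 0.0886 under GM-CSF. Every treated library lay above every medium library, by 0.94 on the log2 scale with TNF (exact permutation p = 5.95e-06, adjusted 5.95e-05) and 1.03 with GM-CSF (exact permutation p = 4.11e-05, adjusted 0.000137), each p being the smallest its test can give. This ratio too was formed after the values were seen. Csf2rb had already been found higher without overlap, and Csf2ra changed less, so the separation and these p-values restate the Csf2rb change. They are not separate support for a shift between the chains, and the same holds for brain tissue below. With LPS in adult microglia, where both genes rose, it was 0.353 ± 0.0905 against 0.410 ± 0.0489 with PBS (exact permutation p = 0.314). In brain tissue it was 0.0922 ± 0.0197 with LPS and 0.0253 ± 0.00191 untreated, without overlap (exact permutation p = 0.0286, the smallest that 4 against 4 allows, adjusted 0.0571).

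**Figure D4:**
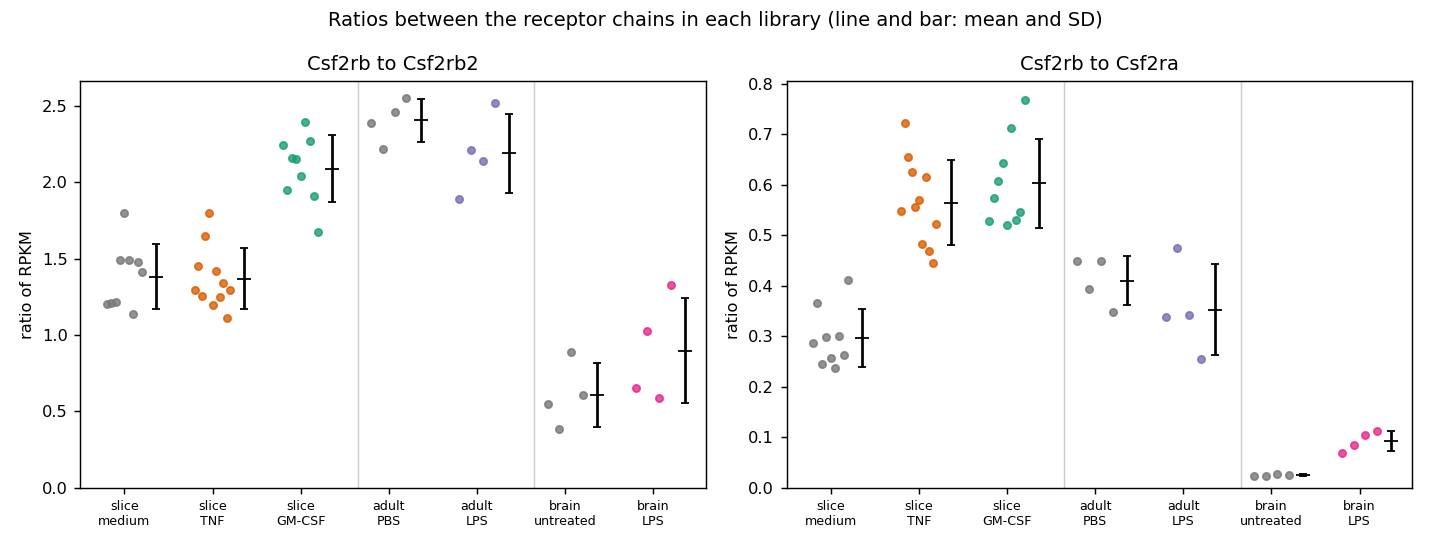
Ratio of RPKM of Csf2rb to Csf2rb2 (left) and of Csf2rb to Csf2ra (right) in each library, with mean and SD. The left ratio is 2.09 with GM-CSF against 1.38 in medium and 1.37 with TNF, and the right one is higher with both cytokines.

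LPS against PBS in adult microglia addressed the family in the living animal. Csf1, Csf2ra and both beta chain genes rose, 4 of 7 members tested, and none fell. Csf1, the ligand of CSF1R, was at 128.9, 55.4, 91.1 and 88.5 CPM with LPS and at 22.9, 26.7, 19.5 and 20.5 with PBS. The groups did not overlap, with LPS replicate 2 the lowest of its group, and the difference was 4.06-fold (log2 2.02 ± 0.24, adjusted p = 0.000187). Csf2ra was at 370.3, 197.2, 322.2 and 324.1 CPM with LPS and at 97.4, 115.5, 101.1 and 109.4 with PBS, again without overlap and with LPS replicate 2 lowest, at 2.87-fold (log2 1.52 ± 0.17, adjusted p = 8.83e-05).

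Csf2rb was at 316.7, 237.2, 280.3 and 210.2 CPM with LPS and at 110.9, 115.6, 115.1 and 96.4 with PBS (2.38-fold, log2 1.25 ± 0.12, adjusted p = 9.64e-06). Csf2rb2 was at 109.1, 69.9, 85.4 and 54.3 CPM with LPS and at 30.3, 33.9, 30.4 and 24.6 with PBS (2.67-fold, log2 1.42 ± 0.20, adjusted p = 0.000396). Neither pair of groups overlapped, which was not counted over all genes. Of all genes tested 27.4% were called, 14.4% higher and 13% lower, beside which the 4 members called higher are to be read.

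Csf1r was at 13032, 11978, 11026 and 12303 CPM with LPS and at 15851, 14587, 14091 and 14069 with PBS. Every LPS library lay below every PBS library, at 1.21-fold (log2 -0.28 ± 0.07, adjusted p = 0.00814), under the fold limit. Microglial markers summed to 28984 to 36452 CPM with LPS and 47620 to 52920 with PBS, 5 of 9 fell, and their part in the Csf1r value was not tested. Csf3r averaged 522.1 ± 99.5 CPM (SD, n = 4) with LPS and 628.0 ± 46.6 (n = 4) with PBS and overlapped (log2 -0.27 ± 0.12, adjusted p = 0.0764). Neutrophil markers summed to 2.99 to 9.33 CPM with LPS and 41.0 to 84.6 CPM with PBS, and all 5 that were tested fell, led by Camp at -5.31. Their part in the Csf3r value was not tested. Il3ra, at 12 to 27 counts per LPS library and 10 to 21 per PBS library, had a log2 interval of -0.41 to 0.91.

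Markers of monocytes and border macrophages also moved, from 16.8 to 23.7 summed CPM with PBS to 32.4 to 49.7 with LPS, with 3 of 5 tested higher, among them F13a1 (4.30) and Cbr2 (3.88), and Ccr2 lower (-0.81). Their part in the values of Csf1, Csf2ra and the beta chain genes was not tested.

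Of STAT5 targets and feedback genes 7 of 12 rose in LPS microglia and none fell, with a median of 0.72 beside 0.01 over all genes, led by the cyclin Ccnd2 (5.33), the kinase Pim1 (3.68) and Socs3 (3.40). Of the inhibitors named above, Socs2 was not called (0.003 ± 0.40, adjusted p = 0.995) and Cish had too few counts to be tested. Of 23 signalling genes 3 rose and 1 fell, the kinase subunit gene Pik3cg (-0.83). Of 10 CSF1R signalling genes 3 fell, the adaptor Gab1 (-1.74), Fli1 (-0.63) and Fyn (-0.60), and none rose. Among 8 transcription factors of the CSF1R axis 2 rose and 2 fell, with Cebpb at 1.57, Cebpa at -1.36 and Maf at -1.20, and of the 2 relatives tested Kitl fell by 0.69.

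LPS against no treatment in brain tissue gave 2 members higher of 8 tested, again the beta chain genes. Csf2rb had 35, 44, 37 and 57 counts (3.69, 5.19, 4.47 and 6.40 CPM) with LPS and 11, 13, 15 and 13 counts (1.11, 1.26, 1.55 and 1.36 CPM) untreated. The groups were apart, at 3.71-fold (log2 1.89 ± 0.23, adjusted p = 8.79e-05). Csf2rb2 had 35, 28, 41 and 28 counts with LPS (3.69, 3.30, 4.96 and 3.15 CPM) and 13, 22, 11 and 14 untreated (1.31, 2.14, 1.14 and 1.46 CPM), also apart, at 2.47-fold (log2 1.30 ± 0.25, adjusted p = 0.00306). Of all genes 3.18% were called, 2.63% higher and 0.55% lower, so a call was rarer here than in the sorted cells.

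Csf1 was at 30.1, 30.2, 38.1 and 34.9 CPM with LPS and 24.0, 25.7, 26.1 and 27.8 untreated, apart but at 1.29-fold (log2 0.36 ± 0.09, adjusted p = 0.0122), under the fold limit. Csf3r, at 8.86, 8.02, 8.22 and 8.65 CPM against 5.03, 6.71, 7.14 and 5.75, was likewise apart at 1.37-fold (log2 0.46 ± 0.14, adjusted p = 0.0485). Csf1r averaged 109.9 ± 19.5 CPM (SD, n = 4) with LPS and 89.1 ± 5.33 (n = 4) untreated (adjusted p = 0.183), with LPS replicate 3 at 83.6 CPM below all untreated libraries. Il34, the neuronal ligand, was at 38.5, 41.4, 34.8 and 39.5 CPM with LPS and 44.6, 44.0, 40.5 and 44.3 untreated (log2 -0.17 ± 0.07, adjusted p = 0.126). Csf2ra, at 21.3 ± 3.08 against 20.5 ± 1.47 CPM, had a log2 interval of -0.14 to 0.25, and Il3ra one of -0.31 to 0.88.

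Markers of other cells moved in the same tissue. Neutrophil markers summed to 4.83 to 9.77 CPM with LPS and 1.36 to 3.10 untreated, with S100a9 higher by 3.05 and Elane at 0 in both groups. Of 10 such markers 2 were tested, and Ly6g is not listed for brain tissue. Markers of monocytes and border macrophages summed to 11.5 to 17.0 and 7.34 to 9.21 CPM, with Lyve1 (1.68) and Cd163 (0.89) higher. Mrc1 of that list had no count in either group, for a reason not known here, so the sum lacks it. Microglial markers summed to 163.7 to 300.1 CPM with LPS and 231.8 to 267.4 untreated, with 3 of 9 lower and none higher. Of 6 astrocyte markers Gfap was higher (1.36), of 6 endothelial and pericyte markers Pecam1 (1.09) and Cldn5 (0.78) were higher, and of 5 oligodendrocyte markers 2 were lower, among them Mog (-0.74). The part of these cells in the beta chain, Csf1 and Csf3r values was not tested.

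In brain tissue 4 of 22 signalling genes rose, among them the phosphatase gene Ptpn6 (0.91), and 2 of 11 STAT5 targets and feedback genes, Socs3 (1.67) and Myc (0.65). Of 10 CSF1R signalling genes Fli1 (0.75), Plcg2 (0.64) and Tyrobp (0.64) rose. Of 8 transcription factors 4 rose, among them Runx1 (1.20), the PU.1 gene Spi1 (0.89) and Cebpb (0.73), and none of either list fell.

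The LPS effects in adult microglia and in brain tissue were compared as an interaction over 16 samples, with 19.7% of 16676 genes called, 9.1% higher and 10.6% lower in microglia. Tissue, sort, kit and kind of control coincide in this comparison and cannot be told apart. For 2 of 8 members the effect was higher in microglia and for 2 it was lower. The effect on Csf1 was higher in microglia by 1.65 ± 0.27 on the log2 scale (adjusted p = 0.000177) and that on Csf2ra by 1.45 ± 0.23 (adjusted p = 0.000108). Those on Csf3r and Csf1r were lower, at -0.73 ± 0.20 (adjusted p = 0.00687) and -0.59 ± 0.15 (adjusted p = 0.00391). The last is a fold of 1.51 and close to the limit, and leaving out 1 library took it to between -0.49 and -0.71 and ended the call for 7 of the 16 libraries. The Csf3r call was lost with limma-voom (-0.76, adjusted p = 0.151). For Csf2rb the difference was -0.65 ± 0.30 (adjusted p = 0.115) and for Csf2rb2 0.11 ± 0.42 (adjusted p = 0.948), with intervals of -1.24 to -0.06 and -0.71 to 0.93. Without LPS microglia replicate 1 the Csf2rb difference was -0.75 (adjusted p = 0.039) and was called. Il3ra (-0.05 ± 0.46) and Il34 (2.34 ± 1.15, adjusted p = 0.182) did not pass, and the Il34 value rests on 2 counts in microglia. In the same comparison 4 of 13 STAT5 targets and feedback genes were higher in microglia and 0 lower, and 3 of 10 CSF1R signalling genes were lower and 0 higher.

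Csf1 in slice microglia differed between the title codes. In medium the 4 libraries of codes 1A and 1B held 140.0 to 181.2 CPM and the 5 of 2A and 2B 71.7 to 139.2 CPM, narrowly without overlap. Replicate 6 (2A) at 139.2 CPM lay beside replicate 1 (1A) at 140.0, and the remaining 2A and 2B libraries at 71.7 to 90.0. With TNF the ranges were 103.4 to 181.5 (6 libraries) and 77.0 to 122.1 CPM (5 libraries), and with GM-CSF 104.2 to 155.8 (4 libraries) and 88.2 to 154.2 CPM (5 libraries). In a fit with the treatments, added after seeing the values, Csf1 was 1.39-fold higher in 1A and 1B (log2 0.47 ± 0.11, adjusted p = 0.00636), under the fold limit, where 1.39% of all genes were called. Csf3r (log2 0.27 ± 0.07, adjusted p = 0.0149) and Csf1r (log2 0.15 ± 0.05, adjusted p = 0.0369) also differed below that limit, and no member was called. In medium, Csf3r ran from 165.8 to 185.4 CPM in 1A and 1B and from 121.8 to 144.2 in 2A and 2B, and Csf1r from 5113 to 5734 and from 4187 to 5029, both without overlap. The GM-CSF change of Csf1 was -0.21 within 1A and 1B (adjusted p = 0.422) and 0.48 within 2A and 2B (adjusted p = 0.109), and that of TNF -0.23 (adjusted p = 0.27) and 0.07 (adjusted p = 0.839).

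**Figure D5:**
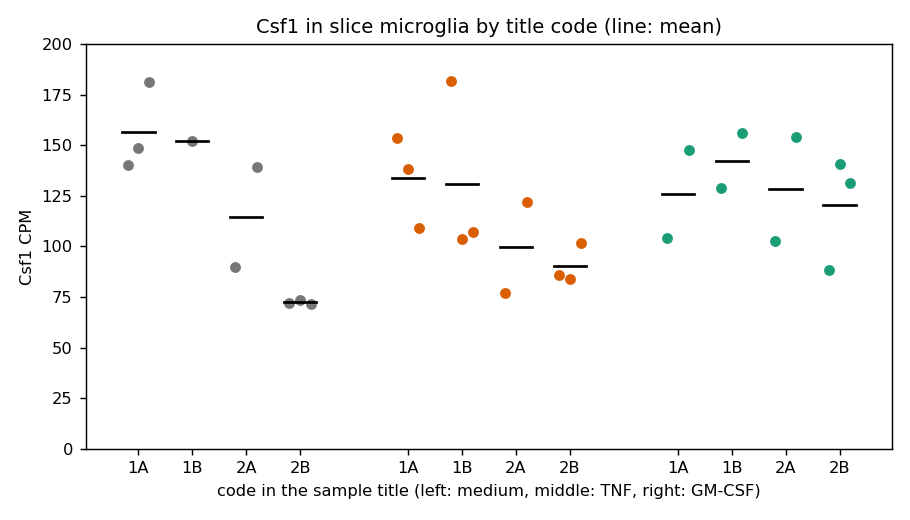
Csf1 CPM in each slice library by the code in its title, for medium (left), TNF (middle) and GM-CSF (right), with the mean of each code as a line. In medium the libraries of codes 2A and 2B lie at 71.7 to 139.2 CPM, below those of 1A and 1B at 140.0 to 181.2 CPM. The highest 2A library lies close to the lowest 1A library.

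For Csf1r, Csf2rb and Csf1, the genes most alike were taken as those at the smallest Euclidean distance over the 4 log2 fold changes (TNF, GM-CSF, LPS in microglia, LPS in brain tissue), among 6250 genes with at least 10 CPM on average in every table. Csf1r was nearest to Rbl2 (distance 0.05), Socs6 (0.13) and Zfp120 (0.17). Csf1 was nearest to Nucb2 (0.37), Gcnt2 (0.44) and Tmem268 (0.48), which were all over 1.79 higher with LPS in microglia on the log2 scale. For Csf2rb, itself under 10 CPM in brain tissue, the nearest of these 6250 genes were Ctsc at 1.01, Cdkn1a at 1.08 and Tagln2 at 1.17. Csf2rb2, also under 10 CPM in brain tissue, was left out by that limit, although it lies nearer to Csf2rb. Its changes were 1.27, 0.47, 1.42 and 1.30 in the order above, beside 1.26, 1.09, 1.25 and 1.89 for Csf2rb. The distances are descriptions, and the TNF and GM-CSF changes within them share their medium samples.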

How the data were processed

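Processed tables of 45 samples were used. For slice microglia the authors deposited whole-number counts per gene, with STAR 2.7.0a and featureCounts (Subread 1.6.4) named in the submitters' processing notes and mm10 as the build. For adult microglia and brain tissue the authors deposited expected counts, which need not be whole. Which aligner and counter made them was not given in the sources used here. The 70872 and 69680 values that were not whole were rounded. Slice and adult libraries were made with a low-input cDNA kit and tagmentation, brain libraries with an mRNA kit, which limits levels set across tables. The brain table holds 92 rows naming no gene, all at 0 counts, which were left out, and 0 per-sample columns lacked a sample.

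Gene names and coordinates came from GENCODE M21 (GRCm38), which named 55450 of 55450, 47224 of 47643 and 42929 of 43411 identifiers. Replicates differed by more than sampling noise (chi-square per degree of freedom at least 1.80, with 0 identical pairs). Tests on counts used glmQLFit and glmQLFTest of edgeR 4.0.16 in R 4.3.3, a quasi-likelihood method (TMM, robust, filterByExpr with a minimum count of 10 and total of 15), with Benjamini-Hochberg adjustment over all genes tested in a comparison. This kept 11313, 12987 and 15083 genes, and 16676 in the interaction. Calls needed an adjusted p under 0.05 and a fold over 1.5. The 29 slice samples were fitted together, the adult and brain tables each alone, and the interaction over 16 samples. SE is that of the log2 fold change, derived from the F statistic, and 95% intervals are normal ones. CPM used TMM-scaled library sizes and RPKM the union of exons. Ratios were tested by exact permutation of samples. The script for the fits was tested on simulated data.

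The members and gene lists were chosen with earlier results of these data known. The genes named were all 10 members, of each list at most the 3 called genes with the largest change per comparison, overlapping genes in the annotation, and the 3 nearest genes of Csf1r, Csf2rb and Csf1. Cish and Socs2 were also named in LPS microglia, where neither was called. Alternatives were other size factors, no filter or a minimum count of 30, DESeq2 1.42.0, limma 3.58.1 (voom), no fold limit, title codes as a term or apart, only 2 groups in a fit, a replicate block, and leaving out single libraries. Leaving out TNF replicate 6, the contrast of title codes and the ratio tests were added after seeing the data. Libraries carry no molecular identifiers. Some genes of the lists are counted but not reported here by name.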

Additional observations from a re-analysis of the deposited data

Results flagged for a closer look

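In brain tissue, Il34 in untreated replicate 3 stood at 40.5 CPM, below the other untreated libraries at 44.0 to 44.6 CPM by more of the range than Dixon's limit allows. It was the only such case among 44 sets of member and group looked at, fewer than the about 1 in 20 that chance alone would give. The limit was not applied to the TNF group, the largest at 11 samples, or to sets with few counts. Without that library the log2 difference of Il34 between LPS and untreated tissue was -0.20 (adjusted p = 0.116), beside -0.17 with it.

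For 4 members the response to LPS differed between adult microglia and brain tissue by a test of the difference itself. On the log2 scale the effect in microglia minus that in tissue was 1.65 for Csf1 and 1.45 for Csf2ra, and -0.73 for Csf3r and -0.59 for Csf1r. The Csf1r difference passed the fold limit narrowly and was not called under several other settings, whose values are given with the processing. The Csf3r difference was not called with limma-voom (-0.76, adjusted p = 0.151).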

How the results depend on the processing

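Of 702 log2 values of members under an alternative, 661 kept their direction and their side of the threshold, 14 came to pass it, 11 no longer did and 16 changed sign. Without the fold limit the members called were 5 with TNF, 4 with GM-CSF, 4 between the cytokines and 4 with LPS in brain tissue. In LPS microglia Csf1r (edgeR test, adjusted p = 0.00814) joined the 4 called, and the interaction kept its 4. Genes called over the tables rose from 2353, 1222, 1833, 3563, 479 and 3289 to 4476, 2892, 3486, 6703, 1533 and 5136, since that setting drops a criterion. The genes tested were 11313 in each slice comparison, 12987 in adult microglia, 15083 in brain tissue and 16676 in the interaction, beside which the members are to be read. With title codes 1A and 1B alone 2 members differed between the cytokines, Csf3r being added, and with 2A and 2B alone the genes called with GM-CSF fell to 785 with fewer samples. Under limma-voom 2 members were called in the interaction, Csf1r (-0.58) and Csf3r (-0.76, adjusted p = 0.151) being lost, and the Csf1r call was also lost with no low-count filter (-0.56). The cause was not tested.

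Changes of sign concerned members whose log2 value in the main fit was at most 0.11 in size, none of them called. The Csf1 change with GM-CSF had opposite signs within 1A and 1B and within 2A and 2B, as given above. Csf1 with TNF was 0.073 within 2A and 2B and 0.037 with the replicate block, Csf1 with GM-CSF was -0.21 within 1A and 1B, and Csf1r between the cytokines was 0.0070 with a minimum count of 30, 0.026 with the replicate block and 0.010 without TNF replicate 6. Leaving out 1 library at a time gave 4 members called in adult microglia, 2 in brain tissue and 3 to 5 in the interaction. It took Csf2ra in brain tissue from -0.013 to 0.15, and in the interaction Csf2rb2 from -0.11 to 0.26 and Il3ra from -0.23 to 0.14.

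The deviations of samples with the same number correlated at -0.033 to 0.021 in adult microglia, -0.078 to 0.043 in brain tissue and -0.041 to 0.184 in slices. In slices, the TNF library of the same number was the best match of medium replicates 1 to 4 (0.184, 0.168, 0.107 and 0.163). For replicates 5 to 9 it was not (0.041 to 0.090). Same-numbered medium and TNF libraries share the title code in replicates 1 to 4, but most of replicates 5 to 9 do not. Since not every pair exceeded 0.1, the replicate numbers were not taken to pair the samples, and the replicate block joins libraries of different codes. In the running numbers that end the slice titles, every medium number is followed by a TNF number of the same code. Most of these TNF numbers are followed by a GM-CSF number. The same-numbered medium and TNF libraries of replicates 1 to 4 are such neighbours, and those of replicates 5 to 9 are not. The running numbers were not used as a key, so pairing by them was not tested, and the fits and permutation tests hold no term for it. With the replicate block the number of members called was 2 with TNF, 2 with GM-CSF, 1 between the cytokines, 4 in adult microglia and 2 in brain tissue, and in the interaction 4, with Csf2rb called (-0.66, adjusted p = 0.038) and Csf1r not (-0.58). Depth limits Csf2, Csf3 and Il34 in microglia, Il3ra in adult cells and both beta chain genes in brain tissue, which rest on 11 to 57 counts per library.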
